A study of Mus musculus with 7 samples.

Results

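The genes described here encode the molecules of the major histocompatibility complex (MHC, called H2 in the mouse) and the machinery that loads them with peptide. They were taken from a count table of brown fat as the protein-coding genes whose symbol starts with H2-, together with B2m, Tap1, Tap2, Tapbp, Psmb8, Psmb9, Psmb10, Cd74, Ciita and Nlrc5. This gave 44 of 53715 genes, 32 for class I, 11 for class II and 1, H2-Ke6, that encodes a steroid dehydrogenase and no MHC molecule. The tissue was interscapular brown fat, a depot that burns lipid to make heat, taken from C57BL/6J males at 10 weeks of age. The comparison set PGAM5 KO mice (KO), without a phosphatase found in mitochondria, against wild-type mice (WT). Labels list 3 WT and 4 KO samples, of which KO 4 was not analysed here, so each group had 3 libraries. Nothing in the labels says whether each sample was a separate animal, so p-values measure only the spread between these samples. How the gene was knocked out is not given in the sources used here.

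Class I molecules pair a heavy chain with beta-2 microglobulin (B2m) and show peptides of a cell's own proteins to CD8 T cells on nearly every nucleated cell. Immunoproteasome subunits (Psmb8, Psmb9, Psmb10) cut those peptides, the TAP transporter (Tap1, Tap2) carries them into the endoplasmic reticulum, and tapasin (Tapbp) holds the heavy chain at the transporter. Class II molecules are made mainly by dendritic cells, B cells and macrophages, bind the invariant chain (Cd74) and exchange it for peptide with the help of H2-DM. Nlrc5 and Ciita are the transactivators of class I and class II genes, and interferon gamma induces both. In a bulk library of a fat pad, fewer cells of a type and less RNA per cell cannot be told apart.

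Libraries held 18034204 to 33617762 counts. Levels are given as CPM (counts scaled to the library's total) after TMM scaling, which corrects for differences in library composition, and fold changes as log2 of KO over WT with their standard error (SE). Pgam5, the targeted gene, had 122 to 186 counts in the WT and 1 to 11 counts in the KO libraries (log2 -4.84, SE 0.59, edgeR adjusted p = 0.0243). Fabp4, a fatty acid binding protein of adipocytes, had group means of 8662 ± 1667 (WT) and 7402 ± 1551 CPM (KO; SD, n = 3 each). Ucp1, the uncoupling protein that marks brown fat, was at 2297 ± 614 and 4782 ± 1115 CPM (SD, n = 3 each). Its difference did not pass the test (log2 1.06, SE 0.28, edgeR adjusted p = 0.310). Of 8 brown adipocyte markers that include both genes, 2 had a positive log2 fold change, and the median was -0.19. WT 2 had the highest share of counts from the mitochondrial genome (43.0%) and KO 3 the lowest (19.7%), with the other 4 libraries at 28.2% to 34.1%.

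Most MHC and antigen presentation genes stood slightly higher in KO than in WT, but none passed the test. Of the 44 genes, 29 had enough counts to be tested, 20 of class I, 8 of class II and H2-Ke6. By the edgeR quasi-likelihood test with Benjamini-Hochberg adjustment over all 15123 tested genes, 0 of the 29 passed an adjusted p of 0.05, against 0.0595% of all genes. DESeq2 and limma-voom also called 0. At an unadjusted p under 0.05 there were 5 members, all with a positive log2 fold change, against 6.3% of all genes higher and 5.49% lower. These were Nlrc5, Tap1, Tapbp, Tap2 and H2-T24. The lowest adjusted p of a member was 0.313.

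The log2 fold change was positive for 25 of 29 members, against 49.8% of all genes tested. Its median was 0.25 over the 20 class I genes and 0.23 over the 8 class II genes, and -0.0019 over all genes. Members ran from -0.64 (H2-M9) to 0.80 (Nlrc5), and the median size of the change regardless of sign, 0.32, was close to that of all genes, 0.28. The medians depended on single libraries. Without KO 3 they were 0.46 for class I and 0.39 for class II. Without KO 2 the class I median was 0.13, and without KO 1 or WT 1 the class II median was 0.084 or 0.13.

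**Figure D1:**
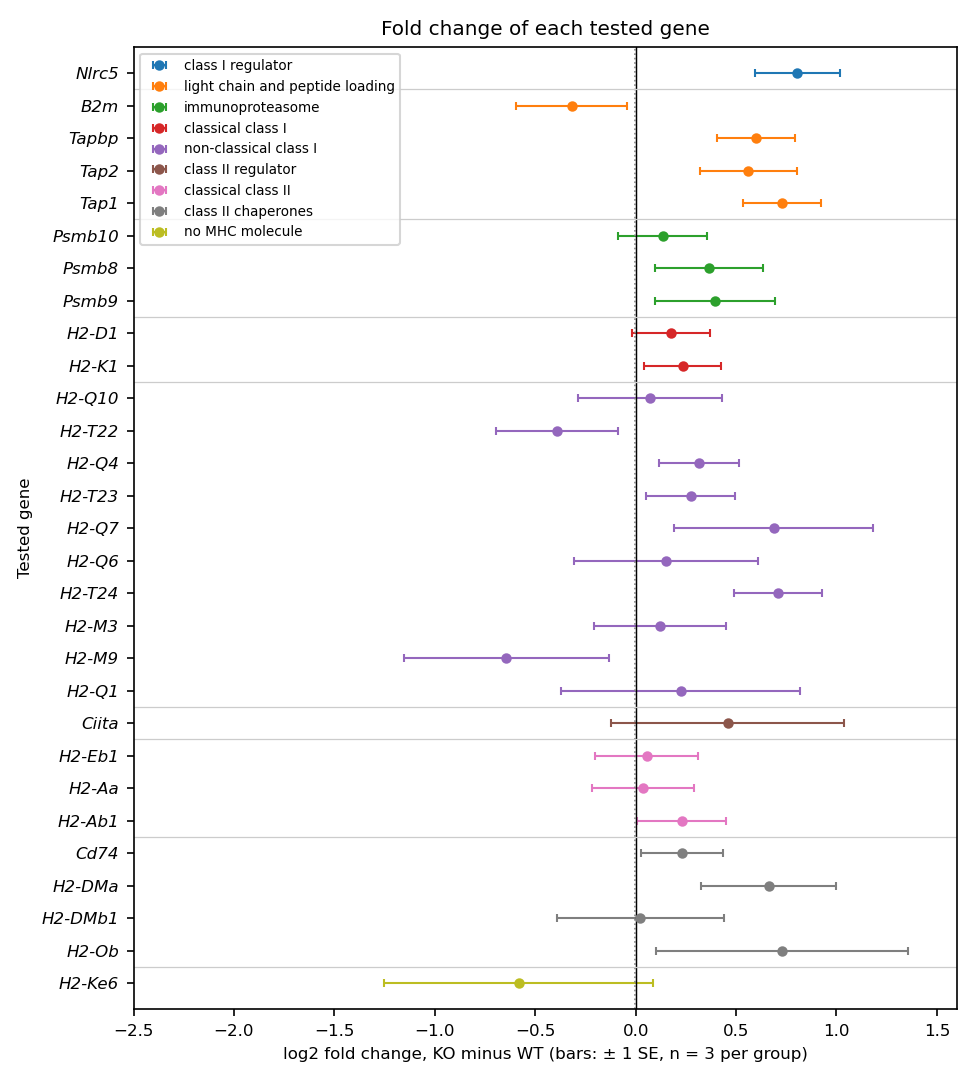
Log2 fold change (KO minus WT, horizontal axis) of the 29 tested genes, ordered by role, with bars of 1 SE (n = 3 per group) and a dotted line at the median of all tested genes. The regulator Nlrc5, H2-T24 and the peptide loading genes Tap1, Tapbp and Tap2 lie farthest from 0 relative to their bars, while B2m, H2-T22, H2-M9 and H2-Ke6 lie below 0.

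Nlrc5, the class I transactivator, had the lowest unadjusted p of the members. In replicates 1 to 3, the order used throughout, it stood at 8.20, 6.20 and 7.83 CPM in the WT libraries against 12.0, 15.1 and 11.8 in the KO libraries. The lowest KO value was above the highest WT value. Group means were 7.41 ± 1.06 and 13.0 ± 1.85 CPM (SD, n = 3 each). The difference was 0.80 on the log2 scale (SE 0.21) and missed the threshold (edgeR adjusted p = 0.313). Over the 16 alternatives its log2 fold change ran from 0.68 to 0.88 and its adjusted p from 0.0720 to 0.624.

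Among the peptide loading genes, Tap1 had 14.8, 11.0 and 12.2 CPM in the WT libraries against 17.96, 23.6 and 21.6 in the KO libraries. Its groups did not overlap, and the log2 fold change was 0.73 (SE 0.19, edgeR adjusted p = 0.316). Over the alternatives the adjusted p of Tap1 ran from 0.0578 to 0.652. Tap2, the partner chain of the transporter, had 18.8, 13.0 and 25.1 CPM in the WT libraries against 23.8, 28.6 and 31.9 in the KO libraries. Here WT 3 lay above KO 1, so the groups overlapped (log2 0.56, SE 0.24, edgeR adjusted p = 0.420). Without WT 2 the value was 0.35, and without both WT 2 and KO 3 it was 0.26. Tapbp, tapasin, had 71.1, 57.9 and 77.1 CPM in the WT libraries against 83.3, 106 and 123 in the KO libraries, with no overlap. In log2 terms the difference was 0.60 (SE 0.20, edgeR adjusted p = 0.374) and 0.36 without both WT 2 and KO 3.

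B2m, the light chain that all class I molecules share, did not follow the loading genes. It was at 391, 410 and 416 CPM in the WT libraries against 355, 430 and 190 in the KO libraries. Only KO 3 stood away from the rest. The log2 fold change was -0.32 (SE 0.27, edgeR adjusted p = 0.620), and -0.046 without KO 3.

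The immunoproteasome genes overlapped between the groups. Psmb8 had 7.72, 10.3 and 8.09 CPM in the WT libraries against 12.0, 14.2 and 7.38 in the KO libraries. Psmb9 had 7.07, 10.5 and 5.41 CPM in the WT libraries against 10.3, 12.4 and 7.33 in the KO libraries. Psmb10 had 16.2, 25.9 and 17.5 CPM in the WT libraries against 21.8, 25.0 and 18.5 in the KO libraries. KO 1 and KO 2 were above WT 1 and WT 3 in all 3 genes, whereas WT 2 was the highest WT library and KO 3 the lowest KO library. The log2 fold changes were 0.37 (SE 0.27), 0.39 (SE 0.30) and 0.13 (SE 0.22). Without both WT 2 and KO 3 they were 0.73, 0.87 and 0.47, and none passed there either.

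Psmb9 and Tap1 lie head to head on chromosome 17 (mm10), Psmb9 from 34181987 to 34187764 on the minus strand and Tap1 from 34187553 to 34197225 on the plus strand. Their annotated ends overlap by 212 bases. The library kit keeps strand, but the strand setting of the counting was not stated, so reads in that overlap could not be assigned. Of the stretches of 50 bases in Psmb9 transcripts, 4.19% also occur in transcripts of other genes, and of those in Tap1 3.33%. For Tap2 the share was 11.6% and for Tapbp 23.2%. Tapbp also overlaps Zbtb22 on the same strand over 3422 bases, a gene with 1814 counts against 12066, so its counts are less certain.

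The classical heavy chain genes H2-K1 and H2-D1, which make the main class I molecules of this strain, overlapped between the groups. H2-K1 had 231, 183 and 235 CPM in the WT libraries against 218, 298 and 247 in the KO libraries. H2-D1 had 244, 213 and 280 CPM in the WT libraries against 239, 327 and 267 in the KO libraries. In both genes KO 2 was the highest library and WT 2 the lowest, and KO 1 lay within the WT range. H2-K1 differed by 0.23 (log2, SE 0.19, edgeR adjusted p = 0.606) and H2-D1 by 0.18 (SE 0.19, edgeR adjusted p = 0.706). Without KO 2 these differences were 0.11 and 0.042.

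**Figure D2:**
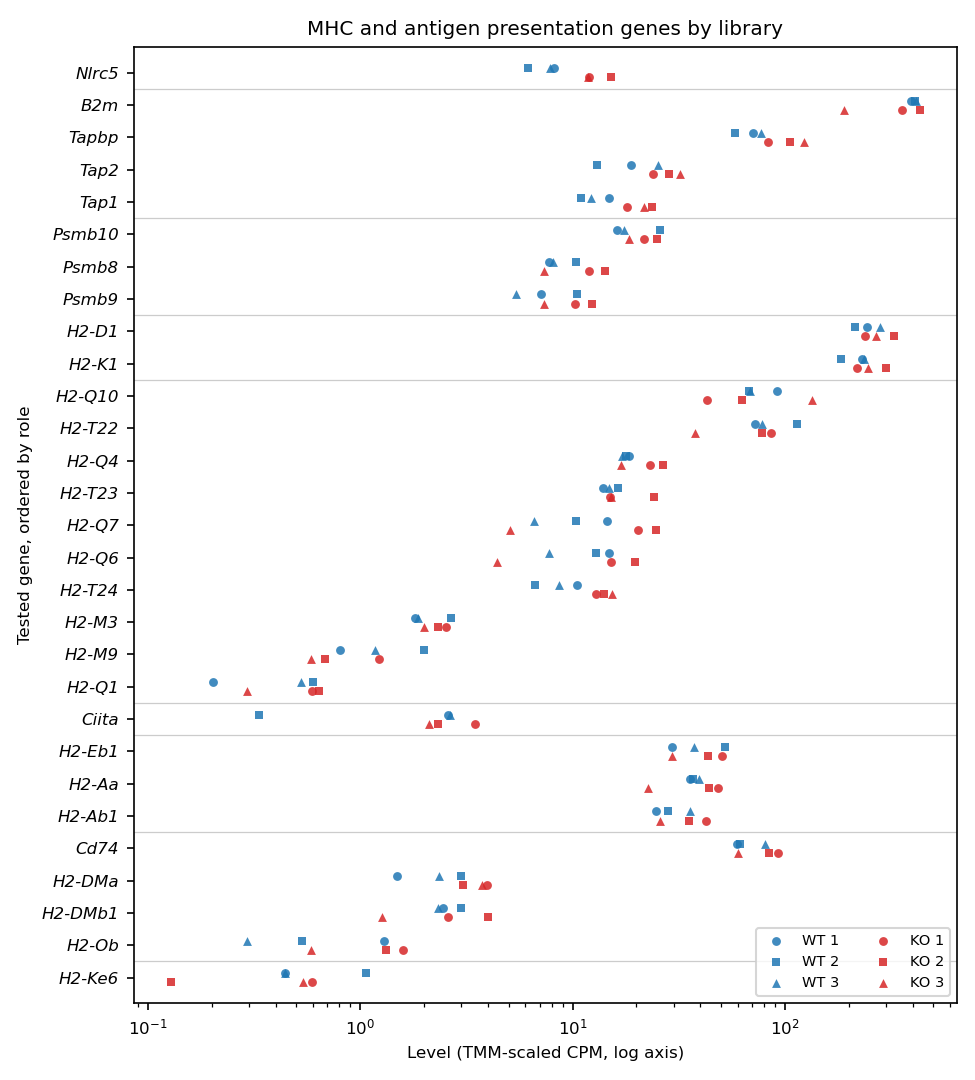
Level of the 29 tested genes in each library (TMM-scaled CPM, log axis), with WT in blue and KO in red and 1 symbol per replicate number. B2m, H2-D1 and H2-K1 have the highest values, and the red and blue points are separated in Nlrc5, Tapbp, Tap1, H2-T24 and H2-DMa.

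The DNA just before the start of transcription is shown for a class I group and a class II pair. Nlrc5 and Ciita, both measured here, act on class I and class II promoters. The 3 motifs below are not given as sites of Nlrc5 or Ciita, and no other promoter element was searched. The sequences are from RefSeq (build GRCm38.p6, the assembly of mm10), end at the base before the gene's annotated start, and read 5′ to 3′ toward the gene. Capitals mark matches to 3 motifs searched on both strands: a kappaB site (its letters are the capitals in H2-K1), a Y box (TGATTGG, which holds an inverted CCAAT box) and an interferon-stimulated response element (TTTC, 2 free bases, TTTC, seen in reverse in B2m). The motifs do not overlap each other in these stretches.
H2-K1 (chr17:34000348-34000547, minus strand): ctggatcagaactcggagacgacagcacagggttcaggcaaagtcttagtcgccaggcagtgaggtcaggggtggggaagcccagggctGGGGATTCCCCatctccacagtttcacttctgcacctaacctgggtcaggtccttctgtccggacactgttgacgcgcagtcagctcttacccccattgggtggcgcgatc
H2-Q6 (chr17:35424650-35424849, plus strand): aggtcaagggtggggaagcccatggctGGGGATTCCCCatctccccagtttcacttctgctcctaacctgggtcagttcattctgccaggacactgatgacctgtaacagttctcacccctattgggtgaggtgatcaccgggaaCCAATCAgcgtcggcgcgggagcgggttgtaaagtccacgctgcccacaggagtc
H2-Q10 (chr17:35469889-35470088, plus strand): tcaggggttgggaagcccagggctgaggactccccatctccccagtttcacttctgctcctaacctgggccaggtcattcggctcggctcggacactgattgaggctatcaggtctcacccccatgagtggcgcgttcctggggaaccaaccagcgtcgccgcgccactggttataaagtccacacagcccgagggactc
B2m (chr2:122147537-122147685, plus strand): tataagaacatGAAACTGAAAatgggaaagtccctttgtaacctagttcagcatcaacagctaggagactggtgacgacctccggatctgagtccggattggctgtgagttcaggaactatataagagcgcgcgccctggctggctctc
H2-Aa (chr17:34287824-34287973, minus strand): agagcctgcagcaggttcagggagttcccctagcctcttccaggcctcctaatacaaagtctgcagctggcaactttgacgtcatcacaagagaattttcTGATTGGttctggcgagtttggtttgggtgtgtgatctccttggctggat
H2-Eb1 (chr17:34305717-34305866, plus strand): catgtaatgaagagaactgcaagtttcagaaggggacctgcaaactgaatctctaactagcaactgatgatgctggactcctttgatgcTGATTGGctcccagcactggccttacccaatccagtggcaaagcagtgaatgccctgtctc

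In the 250 bases before a start, the kappaB letters occurred in 0.0304% of all 32851 promoter windows of the table, and in 3 of the 28 class I genes with a window (H2-D1, H2-K1 and H2-Q6). The Y box letters occurred in 7.23% of windows, in 16 of the 28 class I genes and in 7 of the 8 class II genes. For the head-to-head pair Psmb9 and Tap1 the same bases were counted for both genes. The shares of all are per window, while those of members are per gene. In H2-Aa the Y box began 50 bases before the start and in H2-Eb1 61 bases before it. The response element letters occurred in 2.98% of windows and in 3 class I genes, B2m, H2-T22 and H2-T23. A match describes these letters and is not a measured binding site. Of the 44 members 37 had a window. H2-Q10 is shown as a class I gene whose 200 bases hold no match to the letters searched. H2-K1, H2-Q6 and H2-Q10 all hold tttcacttct, which begins like the response element letters but does not match them. Looser forms of the motifs were not searched, so a stretch without a match may still hold such a site.

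Of the 10 tested non-classical class I genes, 8 had a positive log2 fold change, and none passed the test. H2-T24 had 10.5, 6.67 and 8.65 CPM in the WT libraries against 12.9, 14.1 and 15.4 in the KO libraries. It was the single gene of its group whose libraries did not overlap (log2 0.71, SE 0.22, edgeR adjusted p = 0.350, range over the alternatives 0.130 to 0.741). H2-T23, which encodes the Qa-1 molecule read by receptors of natural killer cells, had 13.9, 16.3 and 14.8 CPM in the WT libraries against 15.1, 24.1 and 15.2 in the KO libraries. Only KO 2 stood out, and the log2 fold change was 0.27 (SE 0.22). H2-T22, a ligand of gamma delta T cells, had 72.2, 114 and 78.0 CPM in the WT libraries against 85.6, 78.2 and 37.8 in the KO libraries. WT 2 was its highest and KO 3 its lowest library (log2 -0.39, SE 0.30), and without both the value was 0.13. Of the 50-base stretches of H2-T22, 53.5% also occur in other transcripts, most often of H2-T10, so its counts are uncertain.

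Several H2-Q genes varied widely between libraries of a group. H2-Q7, which encodes a Qa-2 antigen, had 14.5, 10.3 and 6.56 CPM in the WT libraries against 20.4, 24.8 and 5.08 in the KO libraries. Its neighbour H2-Q6 had 14.8, 12.9 and 7.77 CPM in the WT libraries against 15.2, 19.7 and 4.40 in the KO libraries. In both, KO 3 was the lowest and KO 2 the highest of the 6 libraries. The log2 fold changes were 0.69 (SE 0.50) for H2-Q7 and 0.15 (SE 0.46) for H2-Q6, and without KO 3 they were 1.12 and 0.56. H2-Q10, a secreted class I molecule known mainly from liver, ran the other way. It had 91.7, 67.8 and 68.7 CPM in the WT libraries against 42.9, 62.5 and 134 in the KO libraries, with KO 1 the lowest and KO 3 the highest. Its log2 fold change of 0.07 (SE 0.36) was -0.53 without KO 3. H2-Q4 had 17.01 to 18.5 CPM over the WT libraries and 23.1, 26.5 and 16.9 CPM in KO 1 to KO 3 (log2 0.31, SE 0.20). The share of 50-base stretches found in other transcripts was 35.0% for H2-Q6, 26.5% for H2-Q7, 19.1% for H2-Q10 and 36.4% for H2-Q4, and the treatment of reads that fit several genes is not given in the sources used here.

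The remaining tested class I genes had low counts. H2-M3, which presents peptides with a formyl group, was at 2.12 ± 0.473 (WT) and 2.29 ± 0.273 CPM (KO; SD, n = 3 each), with a log2 fold change of 0.12 (SE 0.33). H2-M9 was at 1.33 ± 0.611 and 0.834 ± 0.345 CPM (SD, n = 3 each), with a log2 fold change of -0.64 (SE 0.51) that was -0.26 without WT 2. H2-Q1 had 66 counts in all 6 libraries (log2 0.22, SE 0.60) and H2-Ke6 had 69 (log2 -0.58, SE 0.67).

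Because all class I heavy chains use the same light chain, levels were also compared within each library, as ratios that do not depend on scaling. B2m over the sum of H2-K1 and H2-D1 was 0.823, 1.04 and 0.808 in the WT libraries against 0.778, 0.689 and 0.369 in the KO libraries. H2-Q7 over H2-Q6 was 0.975, 0.799 and 0.845 against 1.34, 1.26 and 1.16. The H2-Q7 to H2-Q6 ratio was above 1 in every KO library and below 1 in every WT library; it is a ratio of CPM, not of levels per length. Of 7 ratios computed, these 2 were without overlap between the groups, and each had p = 0.1 in an exact two-sided permutation test (adjusted over the 7 ratios 0.35), the smallest p that 3 libraries against 3 allow. The ratios were chosen after the values were seen. H2-D1 over H2-K1 was 1.06 to 1.19 in WT and 1.08 to 1.10 in KO.

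The classical class II genes overlapped between genotypes. H2-Ab1, the beta chain of the A molecule, had 24.7, 28.1 and 35.6 CPM in the WT libraries against 42.7, 35.3 and 25.7 in the KO libraries. Its partner alpha chain H2-Aa had 35.6, 36.8 and 39.4 CPM in the WT libraries against 48.3, 43.8 and 22.7 in the KO libraries. For H2-Aa the WT libraries lay close together, with KO 1 and KO 2 above them and KO 3 below. H2-Eb1, the beta chain of the E molecule, had 29.4, 52.5 and 37.2 CPM in the WT libraries against 50.3, 43.6 and 29.4 in the KO libraries. The log2 fold changes were 0.23 (SE 0.22), 0.04 (SE 0.25) and 0.05 (SE 0.26), with edgeR adjusted p of 0.659, 0.956 and 0.938. Without KO 3 the value for H2-Aa was 0.30. The E alpha chain, which this strain is known not to make, is annotated as the pseudogene H2-Ea-ps and had 0 counts in every library, which allows up to 0.0883 to 0.2001 CPM (3 counts per library; counting error only).

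Cd74, the invariant chain, had 59.7, 61.6 and 80.6 CPM in the WT libraries against 92.3, 84.3 and 60.3 in the KO libraries. KO 1 and KO 2 were the highest libraries and KO 3 lay within the WT range (log2 0.23, SE 0.21, edgeR adjusted p = 0.633). The ratio of Cd74 to H2-Ab1 had means of 2.29 ± 0.114 (WT) and 2.30 ± 0.120 (KO; SD, n = 3 each). H2-DMa, a chain of the peptide exchange factor, had 1.49, 3.00 and 2.35 CPM in the WT libraries against 3.96, 3.05 and 3.76 in the KO libraries. Its groups did not overlap, though WT 2 and KO 2 nearly met (log2 0.66, SE 0.34, edgeR adjusted p = 0.455). H2-DMa overlaps Brd2 on the opposite strand, a gene with 16053 counts against 397, and Brd2 had a log2 fold change of -0.0023 (SE 0.16). The other chain, H2-DMb1, was at 2.597 ± 0.357 (WT) and 2.62 ± 1.36 CPM (KO; SD, n = 3 each).

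Ciita, the class II transactivator, had WT counts of 64, 5 and 90 against KO counts of 76, 54 and 43. WT 2, with 5 counts, stood far below the other libraries. The log2 fold change was 0.46 (SE 0.58, edgeR adjusted p = 0.745), and without WT 2 it was 0.0027. Ciita overlaps Dexi on the opposite strand (log2 0.11, SE 0.23), and 1.46% of its 50-base stretches occur in Dexi transcripts. H2-Ob, a chain of the H2-DM regulator DO, had WT counts of 32, 8 and 10 against KO counts of 35, 31 and 12. Its value of 0.73 (SE 0.63) was 1.55 without WT 1 and 0.32 without WT 3.

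The 15 members under the count filter were 12 non-classical class I and 3 class II genes. Of these, 6 had 0 counts in every library, namely H2-M1, H2-M10.1, H2-M10.3, H2-M10.4, H2-M10.5 and H2-M10.6. H2-Q2, H2-M10.2, H2-M11, H2-T3, H2-M2 and H2-M5 had 1 to 14 counts in all. Among class II genes, H2-Eb2 had 4, H2-Oa 10 and H2-DMb2 60 counts in all. Of 45 H2 symbols in the table, 11 are not annotated as protein-coding and were no members. Among those, H2-K2 had 560, H2-Q5 408 and H2-T10 231 counts in all.

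Per kilobase of annotated exon, B2m was the most abundant member, at 472 CPM per kb in WT and 378 in KO. H2-D1 followed at 95.3 and 108 CPM per kb, H2-K1 at 73.5 and 86.5, and Cd74 at 40.1 and 47.1. These 4 held the same places in both groups. On this scale B2m was above H2-D1, and H2-D1 above H2-K1, in each of the 6 libraries. H2-Eb1 (20.4 and 21.2 CPM per kb) came before H2-Ab1 (11.5 and 13.5) and H2-Aa (9.81 and 10.1). The transactivators were among the lowest tested members per kb, Nlrc5 at 0.873 and 1.53 and Ciita at 0.195 and 0.275 CPM per kb. Length was the union of all annotated exons, which lowers the value of genes with many or long alternative transcripts.

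The KO libraries did not move as a block. Relative to each gene's own mean over the 6 libraries, 24 of the 29 tested members were above it in KO 1 and 26 in KO 2, but 11 in KO 3. In WT 1, WT 2 and WT 3 there were 6, 15 and 11. The median deviation of the class I genes on the log2 scale was -0.18, -0.052 and -0.17 in the WT libraries against 0.21, 0.36 and -0.13 in the KO libraries. For class II genes it was -0.16, -0.079 and 0.0088 against 0.42, 0.24 and -0.35. KO 3 was the lowest library for 10 of the 29 members, against 26.6% of all genes, and the highest for 4, against 26.5%. The 4 were Tapbp, Tap2, H2-T24 and H2-Q10.

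**Figure D3:**
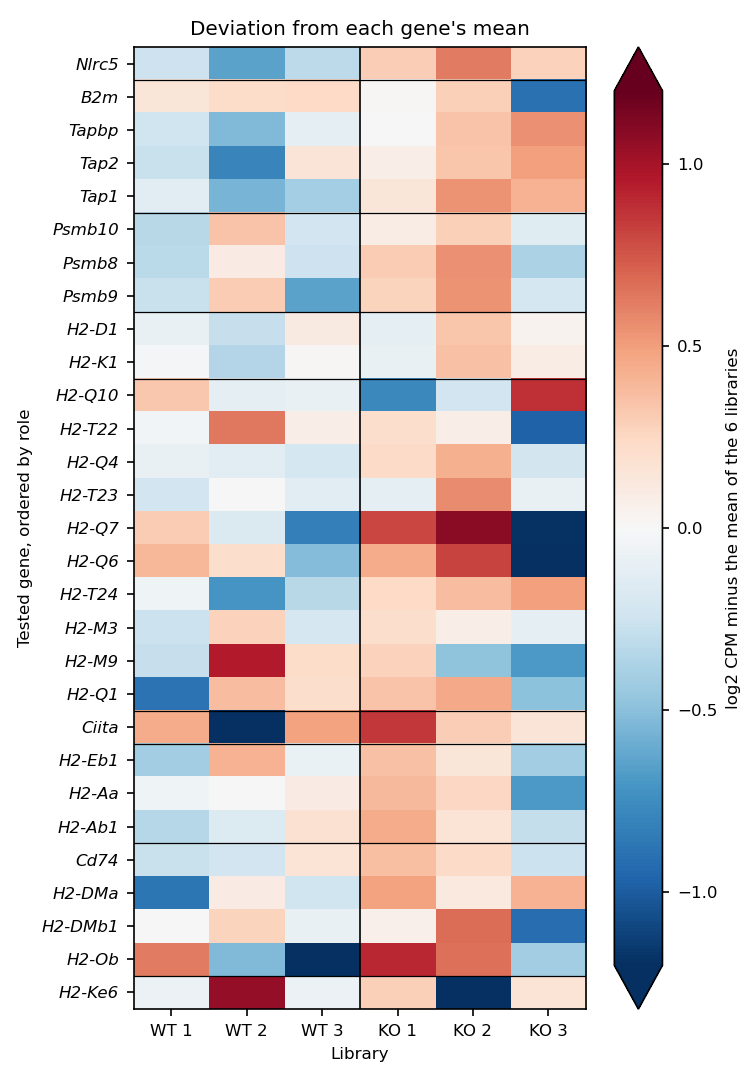
Deviation of each tested gene (rows, ordered by role) from its mean log2 CPM over the 6 libraries (columns), with red above and blue below the mean and the scale saturated at its ends. KO 1 and KO 2 are mostly red, while KO 3 is blue for B2m, H2-T22, H2-Q6, H2-Q7 and H2-Aa and red for Tap1, Tap2, Tapbp, H2-T24 and H2-Q10.

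Markers of leukocytes moved with the libraries. The summed level of 4 general leukocyte genes (Ptprc, Cd53, Coro1a and Laptm5) was 23.6 to 24.2 CPM over the WT libraries and 30.2, 32.6 and 17.8 CPM in KO 1 to KO 3. For 9 dendritic cell markers it was 26.9 to 31.6 CPM over the WT libraries and 34.9, 38.9 and 27.5 CPM in KO 1 to KO 3, mostly from Zbtb46, which endothelial cells also express. Macrophage markers (8 genes) summed to 90.6 to 151 CPM over the WT libraries and 131, 116 and 71.9 CPM in KO 1 to KO 3. Of this, Lyz2 alone gave 44.2 to 84.5 CPM over the WT libraries and 64.0, 53.9 and 28.6 CPM in KO 1 to KO 3. T and NK cell markers (12 genes, 6 tested) summed to 4.27 to 4.93 CPM over the WT libraries and 10.0, 11.8 and 3.96 CPM in KO 1 to KO 3. These sums rest on few counts, and Gzma, which was not tested, had 71 of its 96 counts in KO 2. In these 4 lists KO 3 was at or below the WT range or near its lower end. The class II median deviation given above was also lowest in KO 3. B cell markers (9 genes, 5 tested) differed, at 4.97 to 10.4 CPM over the WT libraries and 12.8, 11.1 and 21.8 CPM in KO 1 to KO 3. Endothelial markers (4 genes) summed to 232 to 389 CPM over the WT libraries and 298, 471 and 626 CPM in KO 1 to KO 3. Of these lists 0 had a member at 0 in all libraries, and 0 members passed the test. The part of cell makeup in the MHC values was not tested.

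Among single markers, Ptprc, the general leukocyte antigen, had means of 8.54 ± 0.620 (WT) and 9.25 ± 3.29 CPM (KO), and Laptm5 had 8.19 ± 1.31 and 9.61 ± 2.38 CPM (SD, n = 3 each). Log2 fold changes were 0.12 (SE 0.28) for Ptprc, 0.12 (SE 0.18) for Zbtb46 and 0.32 (SE 0.33) for the dendritic cell lectin Clec9a. The macrophage lysozyme Lyz2 had -0.27 (SE 0.32) and the mannose receptor Mrc1 -0.30 (SE 0.23), the lowest of the 8 macrophage markers. Over these 8 the median was -0.062, with 2 positive. Cd4 had 0.30 (SE 0.54), Lck 0.71 (SE 0.53), Cd79a 0.49 (SE 0.56), Ighm 1.31 (SE 0.36), Kdr 0.87 (SE 0.34) and Cdh5 0.74 (SE 0.36). All tested genes of the general leukocyte, dendritic cell, T and NK cell, B cell and endothelial lists were positive, against 49.8% of all genes. The medians of these lists were 0.16, 0.32, 0.55, 1.31 and 0.52.

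Other genes of the pathway were read from lists of partners and regulators, and 0 genes of these lists passed over all genes. Among 17 regulators of MHC genes, 8 were positive and the median log2 fold change was -0.055. The most abundant, Ifngr1 and Jak1 of interferon gamma signalling, had -0.51 (SE 0.27) and -0.14 (SE 0.19). Interferon gamma targets had 11 of 12 tested genes positive, against 49.8% of all genes, and a median of 0.66. At an unadjusted p under 0.05 there were 8 of the 12, all higher, against 6.3% of all genes. The guanylate binding proteins Gbp4 and Gbp7 had WT means of 18.9 ± 4.04 and 20.4 ± 4.06 CPM and KO means of 29.3 ± 8.89 and 34.1 ± 14.8 CPM (SD, n = 3 each). The summed level of the 14 targets was 151 to 165 CPM over the WT libraries. In KO 1 to KO 3 the sum was 236, 328 and 152 CPM, with KO 3 in the WT range. Single targets differed from the sum. Groups did not overlap for 3 of the 12, all higher in KO, against 10.1% of all genes. KO 3 was the lowest library for 3 of the 12, against 26.6% of all genes, and the highest for 0, against 26.5%.

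Of the partners that load class I in the endoplasmic reticulum 4 of 9 were positive, with a median of -0.066. In 1 of the 9, higher in KO, the groups did not overlap, against 10.1% of all genes. Canx, the chaperone calnexin, had -0.07 (SE 0.17) and Hspa5 -0.23 (SE 0.25). Genes of the standard proteasome and its activators had 2 of 9 positive and a median of -0.17, with Psma1 at -0.21 (SE 0.16) and Psma3 at -0.19 (SE 0.16). Groups did not overlap for 3 of the 9, all lower in KO, against 9.39% of all genes. The 3 tested immunoproteasome genes, all positive, had a median of 0.37. Lysosomal genes that process antigen for class II had 6 of 8 positive and a median of 0.15, with the protease Ctsb at 0.03 (SE 0.20) and Lamp1 at 0.27 (SE 0.18). In 3 of the 8, all higher in KO, the groups did not overlap, against 10.1% of all genes. Class I-like genes outside the H2 complex had 4 of 8 tested genes positive and a median of 0.0057. At an unadjusted p under 0.05 (edgeR) 3 were higher and 1 was lower, against 6.3% and 5.49% of all genes. The groups did not overlap for 3 in the higher and 1 in the lower direction, against 10.1% and 9.39% of all genes. The lipid-presenting Cd1d1 was at 110 ± 12.5 (WT) and 164 ± 7.65 CPM (KO; SD, n = 3 each), which is 0.58 in log2 terms (SE 0.16, edgeR adjusted p = 0.332), and the antibody receptor Fcgrt stood at 0.10 (SE 0.19). Co-stimulation genes had 1 of 4 tested genes positive and a median of -0.037, with Cd274 at 0.20 (SE 0.20) and Icosl at -0.23 (SE 0.36).

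Of the 44 members 39 lie on chromosome 17 (mm10). The H2 genes among them, 34 in all, span 33996017 to 37483552, from H2-K1 to H2-M2, and other genes lie between them. B2m is on chromosome 2 (122147686 to 122153083), Nlrc5 (94434356 to 94527272) and Psmb10 (105935735 to 105938444) on chromosome 8, Ciita on chromosome 16 (10480059 to 10528418) and Cd74 on chromosome 18 (60803848 to 60812652). Of 105 tested genes in the H2 stretch, 1 passed the test, Ddr1, a collagen receptor gene that is no member. Ddr1 (35681567 to 35704621) lies between H2-Q10 (35470089 to 35474563) and H2-T24 (36005695 to 36020560) and had 72 to 143 counts in WT and 304 to 457 in KO (log2 1.84, SE 0.24, edgeR adjusted p = 0.0392, up to 0.189 over the alternatives).

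The tested non-members of the stretch were mostly positive as well, 57 of 82, with a median log2 fold change of 0.18. Medians were 0.25 for the 20 class I genes, of which B2m, Nlrc5, Psmb10 and Tapbp lie outside the stretch, and -0.0019 for all genes. The 82 include H2-Q5 (0.15), H2-T-ps (0.48) and H2-T10 (0.89), H2 genes that are not annotated as protein-coding. Groups did not overlap for 18 of these 82 genes in the higher and 4 in the lower direction. Over all genes the shares were 10.1% and 9.39%, or 19.5% in either direction. Among the 29 tested members, 5 did not overlap, all higher, namely Nlrc5, Tap1, Tapbp, H2-T24 and H2-DMa. Whether the position of the H2 genes has a part in their values was not tested.

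**Figure D4:**
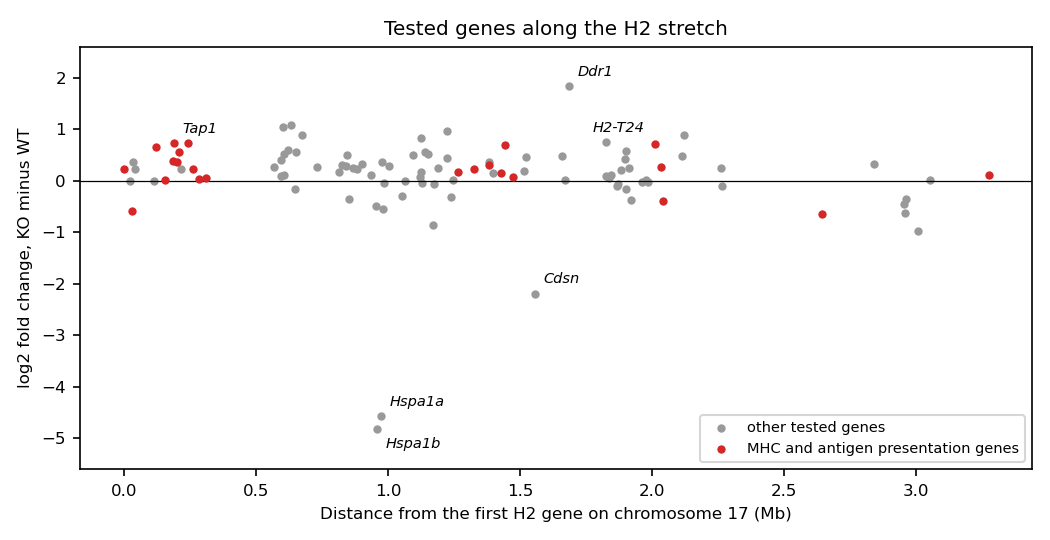
Log2 fold change (KO minus WT) of the 105 tested genes from the first to the last H2 member on chromosome 17, H2-K1 to H2-M2. Genes are placed by distance from the start of H2-K1 in Mb, with members in red and other genes in grey. Both sets lie mostly above 0, Ddr1 is the highest point, and the heat shock genes Hspa1a and Hspa1b, which did not pass the test, are the lowest.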

How the data were processed

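The authors deposited a table of raw counts, 1 row per gene and 1 column per library. The submitters' processing notes name mm10 as the build and the tools HISAT2 2.1.0, featureCounts 1.6.2 and DESeq2, with no roles. RNA was purified by poly(A) and made into libraries with a stranded kit, per the labels. Annotation release, strand setting and handling of multi-mapped reads were not stated. Columns were matched to samples by title. Of 53715 identifiers, 53620 had a symbol and a position in GENCODE release M 21.

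The edgeR function filterByExpr (count 10, total 15) left 15123 genes. edgeR 4.0.16 (R 4.3.3, limma 3.58.1) with TMM factors tested genotype alone by its quasi-likelihood test, on all genes, at a Benjamini-Hochberg adjusted p of 0.05. SE is the size of the log2 fold change divided by the root of F. Log2 CPM used a prior count of 2. Samples with a column in the table entered the fit, 3 WT and 3 KO. All tested members are named, and of other lists the genes that passed or else the 2 of highest mean CPM. Brd2, Dexi, Zbtb22, Gzma, H2 pseudogenes and heat shock genes were named after their values were seen. Members and lists were chosen with earlier results of these data known. The script was tested on simulated data. No 2 columns were identical, and replicates differed by more than sampling noise (chi-square per degree of freedom 34.3 to 220). Alternatives were DESeq2 1.42.0 and its size factors, limma-voom with and without sample quality weights, other filters, a robust fit, a replicate block, removal of mitochondrial genome genes, and libraries left out. Shared stretches of 50 bases were counted on both strands in GENCODE transcripts. Python 3.11.15 made the tables and drew the plots.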

Additional observations from a re-analysis of the deposited data

How the results depend on the processing

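The count of 0 members past the threshold held in all 16 alternatives, including DESeq2, limma-voom and no filter. Of 462 member values under an alternative, 440 kept their sign and 22 did not, and 22 of the 29 tested members never changed sign. Nlrc5, Tap1 and H2-T24 had an unadjusted p under 0.05 in all 16, Tapbp in 15 and Tap2 in 10.

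Over all genes, 9 calls became 168 with DESeq2, 21 with sample quality weights, 663 with no filter and 27 without both WT 2 and KO 3. With 1 library left out there were 0 to 17 calls, 0 without KO 2 (1482 genes at an unadjusted p under 0.05), 1 without KO 1 and 17 without WT 2. The class I median log2 fold change ran from 0.13 to 0.46 and the class II median from 0.084 to 0.39 with 1 library left out, and the class I median was 0.46 without both WT 2 and KO 3. With 1 library left out, values that changed sign ran from -0.42 to 0.35 for H2-DMb1, -0.16 to 0.30 for H2-Aa, -0.12 to 0.30 for H2-Eb1, -0.13 to 0.49 for H2-Q1, -0.27 to 0.56 for H2-Q6 and -0.53 to 0.38 for H2-Q10. With limma-voom, H2-DMb1 stood at -0.067, H2-Aa at -0.032 and H2-Q10 at -0.080, and with sample quality weights H2-Q10 at -0.36. Without both WT 2 and KO 3, H2-Q10 stood at -0.60 and H2-T22 at 0.13. The cause of these changes was not tested.

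Whether the replicate numbers pair the libraries is not known. Deviations of same-numbered libraries correlated at -0.11, 0.10 and 0.091. WT 1 and WT 2 correlated best with a KO library of another number, and WT 3 with KO 3. With 3 libraries per group the deviations from a group mean depend on each other, so these correlations cannot decide on pairing. With a replicate block 5 genes were called over all genes and 0 members, and H2-DMb1 (-0.11), H2-Aa (-0.029), H2-Q6 (-0.042) and H2-Q10 (-0.080) changed sign. H2-Q1, H2-Ke6 and H2-Ob, with 66, 69 and 128 counts in all, had the widest SE of the tested members (0.60 to 0.67), but H2-Q7 had an SE of 0.50 with 1867 counts, and the part of depth in these errors was not tested.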
